A study of Mus musculus with 106 samples.

Results

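WSB/EiJ is a wild-derived inbred mouse strain, commonly described as lean, and its liver response to a high-fat diet is described here from 12 of the 106 libraries of a study of 9 inbred strains. The 12 were the livers labelled WSB/EiJ: 6 from mice on a chow diet (CD, 6% of calories from fat, 20% from protein and 74% from carbohydrate) and 6 from mice on a high-fat diet (HFD, 60%, 20% and 20%). Each diet held 3 females and 3 males. The mice were inbred animals with no transgene and no drug. HFD feeding began at 8 weeks of age and livers were taken at 21 weeks, in the morning, from perfused animals that had food at all times. How recently each mouse had eaten is not given in the sources used here. The labels number the CD and the HFD mice of each sex in separate blocks, so a cohort, if the blocks are cohorts, and the diet cannot be told apart within a sex.

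RNA from whole liver was counted per gene. Totals over the 14330 genes of the table were 45954717 to 54993544 counts in the 12 libraries, and levels below are CPM, counts scaled to a common library size. In whole tissue, fewer cells of a type and less RNA per cell cannot be told apart. Summed CPM of 9 hepatocyte markers ran from 79266 to 192574, against 365 to 604 for 22 macrophage markers, and Xist and Ddx3y matched the labelled sex in 12 of 12 libraries. Each diet effect is the change from CD to HFD on the log2 scale with its standard error. "Called" means an adjusted p under 0.05 over all genes in edgeR's quasi-likelihood test, fitted over all 36 groups of the study.

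The liver handles dietary fat and sugar through programmes that switch between the fed and the fasted state. It also stores vitamin A and breaks down its active form, retinoic acid, clears foreign compounds and bile acids with cytochrome P450 enzymes, and secretes proteins whose output differs by sex. Many of these enzymes are set by nuclear receptors that pair with the retinoid X receptor.

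On HFD, WSB/EiJ livers had lower levels of enzymes that clear retinoic acid (Cyp26a1, Cyp26b1), of the xenobiotic P450 Cyp3a11 and of the sterol synthesis enzyme Tm7sf2. The P450 genes Cyp2c38 and Cyp2c39 were lower on HFD in males, while their log2 effects in females were -0.02 and 0.06. Levels of the serpin gene Serpina12 and of 6 major urinary protein (Mup) genes were higher, and 1 of the 6, Mup13, kept its call without 3 outlying mice described below. Averaged over both sexes, 156 of 14330 genes were called (1.09%), 52 higher (0.363%) and 104 lower (0.726%). An unadjusted p under 0.05 was found for 1968 genes (13.7%). The median log2 effect over all genes was -0.01. The calls used a spread estimated over all 36 groups. Fitted with edgeR on the 12 WSB/EiJ libraries alone, 0 genes were called. Adjusted p in that fit was 0.976 for Cyp26a1, 0.316 for Cyp26b1 and 0.153 for Cyp3a11. For Tm7sf2 and Serpina12 it was 0.442 and 0.273. The 156 calls stood against a spread between mice of the same group that was larger than in any of the other 8 strains.

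That spread was measured first. For each gene the SD of log2 CPM within a group was pooled over a strain's groups, and the median over genes was 0.325 in WSB/EiJ against 0.18 to 0.246 in the other 8. By group it was 0.319 in female CD, 0.31 in female HFD, 0.287 in male CD and 0.205 in male HFD mice. Single groups of the other strains ran from 0.111 to 0.279. Over the 12162 genes with a mean of at least 1 CPM, the first component of the deviations from the group means held 64.6% of the within-group variance. On it, female HFD 2, male CD 3 and female CD 2 scored 63.5, 50.6 and 48.7, and the next mouse, male HFD 2, scored 17.5. These 3 mice, 1 in each of 3 groups, are called the 3 outlying mice below, and no male HFD mouse was among them.

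**Figure D1:**
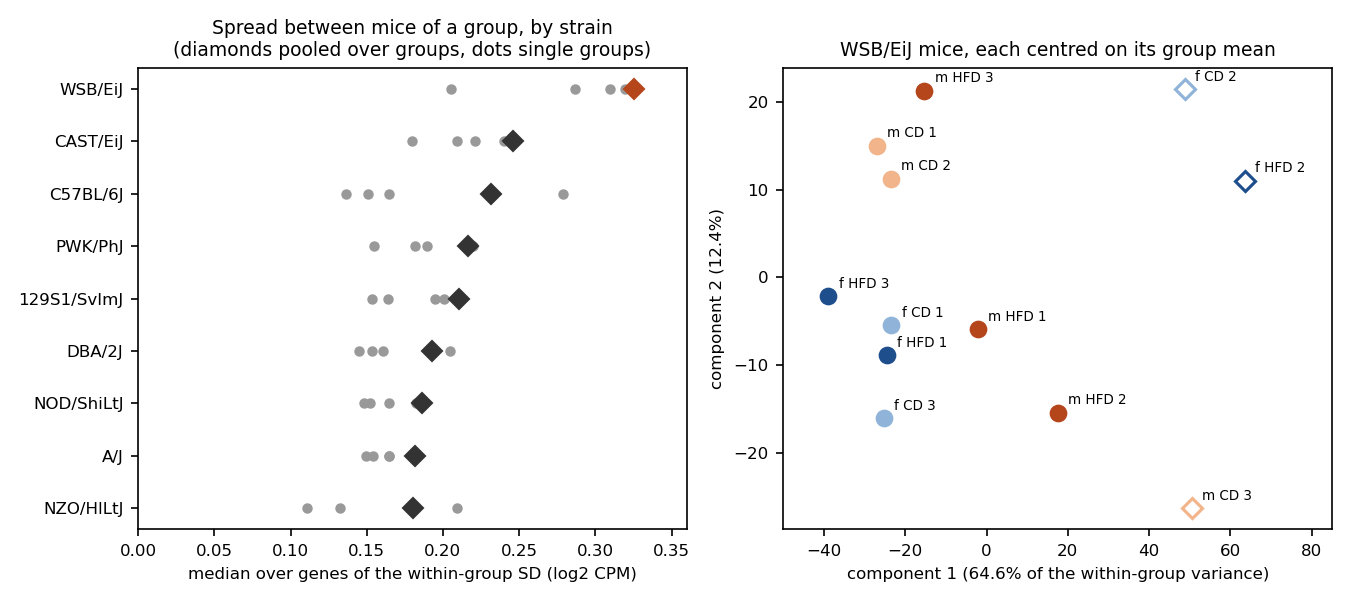
Left, the median over genes of the within-group SD of log2 CPM for each strain (diamonds pooled over its groups, dots single groups); right, scores of the 12 WSB/EiJ mice on the first 2 components of the deviations from their group means. WSB/EiJ has the highest pooled value, 0.325, and 3 mice (open diamonds) lie at 48.7 or more on the first component.

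The 3 outlying mice shared high levels of Igfbp1, which encodes a binding protein of insulin-like growth factors that insulin lowers. Igfbp1 stood at 1579.9, 9033 and 2787 CPM in female CD mice 1 to 3, 646, 9187 and 481 CPM in female HFD, 371, 583 and 5008 CPM in male CD and 803, 679 and 337 CPM in male HFD mice. The highest value in each of the first 3 groups belonged to an outlying mouse. In the other strains the highest Igfbp1 level was 3446 CPM among 48 CD libraries and 660.5 CPM among 46 HFD libraries, below the 5008 CPM of the lowest outlying mouse.

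Further genes with a wide spread followed the same 3 mice. The mice were picked by their deviations within groups, and the genes of widest spread by their SD within the same groups. Such a match is partly built in. Lepr, the leptin receptor gene, stood at 110.4, 494 and 45.4 CPM in female CD, 35.7, 629 and 11.5 CPM in female HFD, 5.34, 6.66 and 419.9 CPM in male CD and 11.3, 40.9 and 4.44 CPM in male HFD mice. Cend1 stood at 13, 76.5 and 2.7 CPM, 2.06, 73.6 and 2.04 CPM, 1.85, 2.93 and 77.6 CPM and 1.49, 3.245 and 1.01 CPM in the same order, and no library of the other strains exceeded 3.38 CPM. In all 3 groups the outlying mouse lay above the other 2. Ppp1r3g, which encodes a subunit that directs a phosphatase to glycogen, reached 209.5, 267 and 80.1 CPM in the 3 mice and 29.3 CPM at most in the rest. Ddit4, an inhibitor of the growth kinase complex mTORC1, reached 560.1, 473 and 407 CPM against 197 CPM or less elsewhere. The adenylate cyclase gene Adcy1 stood at 145, 145 and 109 CPM against at most 19.9 CPM.

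Other genes were low in these mice. Inhbe, which encodes a hormone-like protein secreted by the liver, was at 23, 0.798 and 21.2 CPM in female CD, 61.8, 0.592 and 93.7 CPM in female HFD, 91, 145 and 9.66 CPM in male CD and 130.4, 85.9 and 121 CPM in male HFD mice. The lowest value of each of the first 3 groups was the outlying mouse, and no library of the other strains was below 28.04 CPM. Fgf21, the gene of a hormone the liver releases in fasting, stood at 15.3, 0.289 and 25.3 CPM, 44.1, 2.94 and 39.7 CPM, 28, 44.1 and 9.54 CPM and 80, 75.1 and 50.2 CPM in the same order. It too was lowest in the outlying mouse of each group. Neither gene was called between the diets, with log2 effects of 1.13 (adjusted p = 0.262) and 1.21 (adjusted p = 0.278). Of the 12 fits without 1 library, the one without female HFD 2 called both higher on HFD (adjusted p = 0.0183 and 0.0487).

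**Figure D2:**
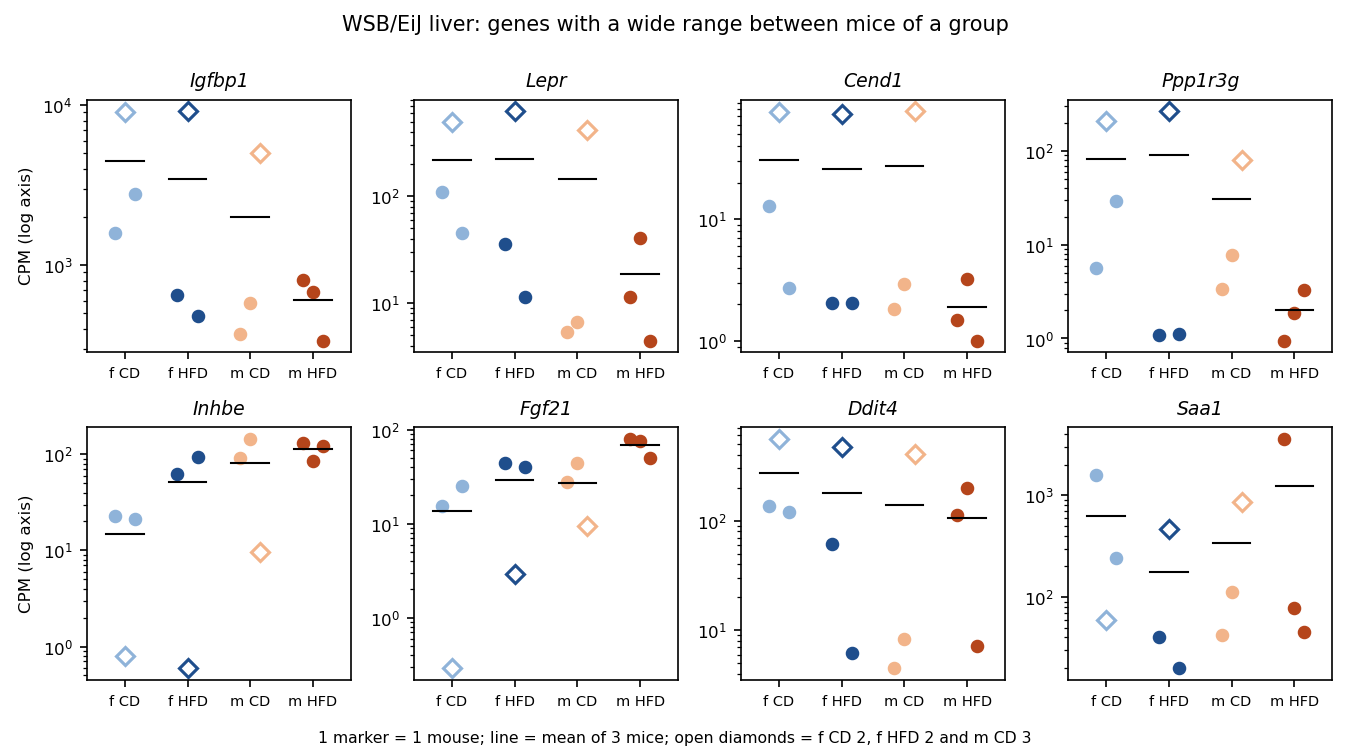
CPM on a log axis of 8 genes in each of the 12 mice, by sex and diet, with the mean of 3 mice as a line and the 3 outlying mice as open diamonds. Igfbp1, Lepr, Cend1, Ppp1r3g and Ddit4 are highest, and Inhbe and Fgf21 lowest, in the outlying mouse of each group that has one, while Saa1 is highest in male HFD 1 at 3604 CPM.

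Lists of genes placed here with the fasted or the fed state gave mixed counts in the 3 mice. Of 20 measured genes of a fasting-high list, 11 were higher and 3 lower in all 3 outlying mice than in both of their group mates, against 3324 and 3306 of all 14330 genes. Of 20 feeding-high genes 2 were higher and 3 lower, with Ppp1r3g among the former, a gene whose place on that list is uncertain. Higher in all 3 mice were 10 of 32 stress-response genes, 18 of 39 amino acid and urea genes and 3 of 6 morning-high clock genes. In these lists 1, 12 and 0 genes were lower. Genes of fatty acid oxidation were lower in all 3 mice in 25 of 35 cases and interferon-response genes in 21 of 29. Marker sums moved with them: hepatocyte markers summed to 102224, 128114 and 79266 CPM in female CD 2, female HFD 2 and male CD 3, each the lowest of its group. The share of reads aligned to several places was the highest of its group in each of them (22.8%, 24.6% and 24.8%, against 18.5% to 24.0% in their group mates). The part of these differences in the diet effects was not tested beyond the fits without the 3 mice given below.

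Not every gene of wide spread followed them. Saa1, an acute-phase protein gene, stood at 1601, 59.2 and 239.7 CPM in female CD, 40.8, 469 and 19.8 CPM in female HFD, 42.6, 112 and 865 CPM in male CD and 3604, 77.5 and 45.7 CPM in male HFD mice, with 1 mouse above the other 2 in each group. That mouse was an outlying one in female HFD and male CD, and in female CD the outlying mouse was lowest. Saa2 had the same order within each group. Derl3, which serves protein quality control in the endoplasmic reticulum, was lowest of its group in female CD 2 (0.713 CPM) and highest in male CD 3 (205 CPM), and it was at 231, 242 and 2.97 CPM in male HFD mice. Gm10309 did follow the 3 mice, at 24.8, 58.1 and 12 CPM against 5.92 CPM or less elsewhere. None of these 4, nor Igfbp1, Lepr, Cend1, Ppp1r3g, Ddit4 or Adcy1, was called between the diets with all 12 mice, and Cend1 came nearest at -2.04 ± 0.57 (SE, adjusted p = 0.0531). These values moved with single mice. Without female HFD 2, Igfbp1, Lepr, Cend1, Ppp1r3g, Adcy1 and Gm10309 were called lower on HFD, at -2.35, -3.07, -3.87, -5.06, -3.37 and -2.28. Without male CD 3 the same genes were at -0.02, 0.85, -0.29, -0.67, 0.20 and 2.31, and none was called. Ddit4 was at -1.72 and 1.72 in these fits, and was called in none of the 12.

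The number of called genes moved with single mice. Leaving out 1 library at a time gave 40 genes without female CD 2, 41 without female HFD 3, 67 without female HFD 1, 68 without male CD 3, 75 without male HFD 3 and 85 without male HFD 1. It gave 381 without male CD 2, 854 without female CD 3 and 1792 without female HFD 2, of which 661 were higher and 1131 lower on HFD. Without the 3 outlying mice together 43 genes were called, 13 higher and 30 lower, and 36 of them were among the 156. Fitted on the 12 WSB/EiJ libraries alone, with no spread borrowed from other strains, 0 genes were called in edgeR and 563 had an unadjusted p under 0.05. Of the 156 genes, 132 had an unadjusted p under 0.05 in that fit and all 156 kept their sign. A core of 26 genes, picked out after their values were seen, was called in each of the 12 fits without 1 library, 8 higher and 18 lower on HFD, and 20 of these were also called without the 3 outlying mice.

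**Figure D3:**
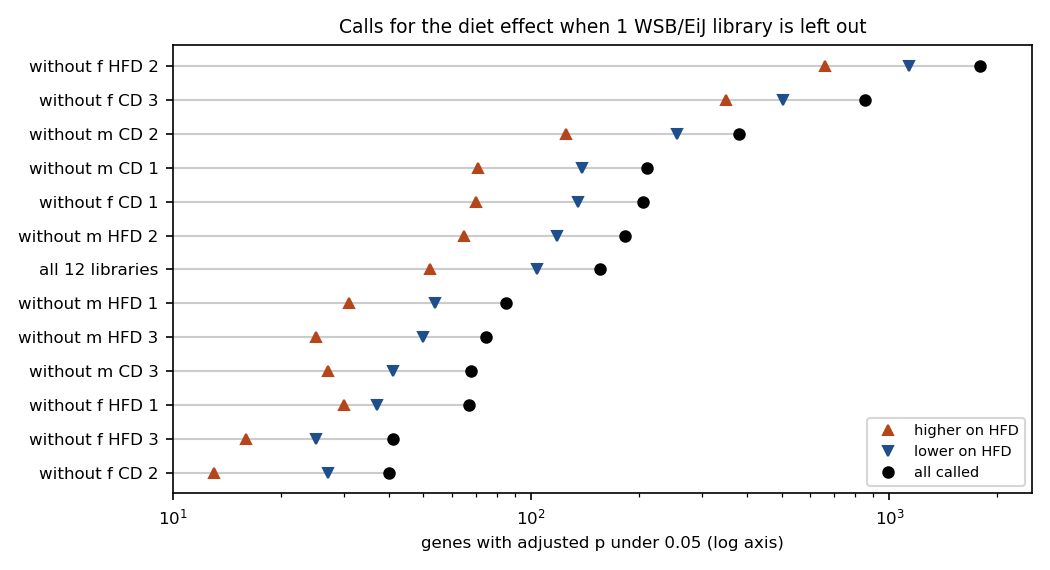
Number of genes with an adjusted p under 0.05 for the sex-averaged diet effect on a log axis with all 12 WSB/EiJ libraries and with 1 left out, in total and by direction. With all 12 it is 156. Leaving out female CD 2 gives the lowest count, 40, and leaving out female HFD 2 the highest, 1792.

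Retinoic acid, the active form of vitamin A, is removed by the hydroxylases CYP26A1 and CYP26B1. Cyp26a1 (chr19:37697798-37701536) was at 8.75, 50.7 and 13.4 CPM in female CD, 0.396, 21.1 and 0.27 CPM in female HFD, 4.42, 2.67 and 17.5 CPM in male CD and 0.213, 0.698 and 0.197 CPM in male HFD mice. All 3 male HFD mice lay below all male CD mice, whereas in females the groups overlapped through the outlying mouse female HFD 2. The gene fell by 3.09 ± 0.53 (SE, adjusted p = 0.000244), and was called in all 12 fits without 1 library. The effect was -5.31 without female HFD 2 and -4.13 without the 3 outlying mice (adjusted p = 7.18e-09). Within CD the outlying mice had the highest level of their sex, so this gene differed both between diets and between mice of a group.

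Cyp26b1 (chr6:84571414-84593908) was at 51.7, 29.1 and 16.3 CPM in female CD and 12, 12.1 and 11.8 CPM in female HFD mice, and at 18, 20 and 15.4 CPM in male CD and 7.08, 10.9 and 6.36 CPM in male HFD mice. The diets did not overlap in either sex, and the outlying mice stood with their groups. It fell by 1.29 ± 0.26 (SE, adjusted p = 0.00209). Of 14330 genes, 0.398% had diet groups that did not overlap in both sexes in the same direction, and among the 156 called genes there were 24.

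The promoters of both genes are shown because Cyp26a1 is a known target of the retinoic acid receptor, which binds a direct repeat of a 6-base site with a 5-base spacer. The windows come from RefSeq (GRCm38.p6), 5′ to 3′ on the strand of the gene, at chr19:37697558-37697857 (plus strand) for Cyp26a1 and chr6:84593761-84594060 (minus strand) for Cyp26b1. Capitals mark the 2 copies of the site in the repeat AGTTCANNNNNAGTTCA, which lies on the opposite strand and so reads TGAACTNNNNNTGAACT here.
Cyp26a1: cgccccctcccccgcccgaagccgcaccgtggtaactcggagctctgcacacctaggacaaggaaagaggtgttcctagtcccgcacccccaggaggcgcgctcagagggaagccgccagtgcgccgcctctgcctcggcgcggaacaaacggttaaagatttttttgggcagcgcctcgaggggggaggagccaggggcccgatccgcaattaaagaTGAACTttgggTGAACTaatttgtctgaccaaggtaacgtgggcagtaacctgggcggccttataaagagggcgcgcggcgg
Cyp26b1: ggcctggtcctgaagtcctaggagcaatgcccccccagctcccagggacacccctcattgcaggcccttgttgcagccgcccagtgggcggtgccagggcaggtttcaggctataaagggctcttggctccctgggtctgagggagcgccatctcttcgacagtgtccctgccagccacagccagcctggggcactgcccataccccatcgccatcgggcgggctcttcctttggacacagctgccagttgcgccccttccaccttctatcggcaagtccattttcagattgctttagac
The repeat spanned bases 219 to 235 of the Cyp26a1 window, upstream of both the RefSeq start and the annotated start given above, and the Cyp26b1 window did not hold these letters. On either strand 8 of 32851 promoter windows of the same length held it (0.0244%), and among the 116 called genes with a window Cyp26a1 was the one that did. Only these exact letters were searched, so looser forms of the repeat in Cyp26b1 or in other called genes were not looked for. A match is a description of the letters and not of binding.

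Over all genes, 0.726% were called lower and 0.363% higher. Of 25 measured genes of a retinoid metabolism list, 4 fell and 0 rose, and the list's median log2 effect was -0.04 against -0.01 for all genes. Besides the hydroxylases these were Rdh16 and Rdh9, of the retinol dehydrogenase family. Rdh16 was at 67, 55.9 and 56 CPM in female CD, 42.7, 23.9 and 44.7 CPM in female HFD, 118, 124 and 139.6 CPM in male CD and 84.5, 51.3 and 66.8 CPM in male HFD mice. It did not overlap between diets in either sex and fell by 0.80 ± 0.15 (SE, adjusted p = 0.000478). Rdh9 changed by -0.93 ± 0.25 (SE, adjusted p = 0.0417), was not called in 8 of the 12 leave-one-out fits (highest adjusted p 0.255 without female HFD 3) and had log2 effects of 0.02 in females and -1.87 in males. The retinoid receptor genes Rara, Rarb, Rxra and the plasma carrier gene Rbp4 were not called, and their log2 effects were 0.22, -0.56, 0.02 and 0.04. Rdh16 and Rdh9 belong to a cluster of similar genes on chromosome 10, where the counting could split reads between copies.

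The xenobiotic metabolism list was the longest and held the most calls. Of its 66 measured genes 12 fell and 0 rose, against 0.726% and 0.363% of all genes. Its median log2 effect was -0.11, with 0.06 in females and -0.30 in males. Cyp3a11 (chr5:145854426-145879964), the main drug-metabolising CYP3A enzyme of mouse liver, was at 516, 285 and 537 CPM in female CD, 108, 98.3 and 396 CPM in female HFD, 366, 324 and 192 CPM in male CD and 20.6, 21.8 and 21.2 CPM in male HFD mice. Male diets lay far apart, while female HFD 3 lay within the range of the female CD mice. Cyp3a11 fell by 2.47 ± 0.29 (SE, adjusted p = 1.98e-08), the lowest adjusted p of any gene in the sex-averaged comparison.

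Cyp2c38 and Cyp2c39 are neighbouring P450 genes on chromosome 19, and CYP2C39 is known to hydroxylate retinoic acid. Cyp2c39 (chr19:39510862-39568529) was at 835, 658 and 896 CPM in female CD and 813, 679 and 994 CPM in female HFD mice, with full overlap. In males it was at 152, 50.8 and 44.4 CPM on CD and 10.1, 2.02 and 3.83 CPM on HFD, with none. Cyp2c38 (chr19:39389556-39463075) had the same pattern, at 36.6, 8.79 and 5.61 CPM in male CD and 1.66, 0.415 and 0.612 CPM in male HFD mice against 109 to 259 CPM in all females. Sex-averaged effects were -1.95 ± 0.32 (SE, adjusted p = 0.000107) for Cyp2c39 and -2.15 ± 0.37 (SE, adjusted p = 0.00025) for Cyp2c38. The 2 genes are alike in sequence, so reads could be split between them.

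Other calls of the list were lower on HFD as well. Cyp2b10, a target of the receptor CAR, stood at 329, 767 and 287 CPM in female CD, 64.6, 582 and 17.2 CPM in female HFD, 0.789, 0.732 and 25.8 CPM in male CD and 0.426, 1.85 and 0.175 CPM in male HFD mice. Its highest levels in females and in males were those of outlying mice, and its effect of -2.25 ± 0.60 (SE, adjusted p = 0.0417) became -0.46 without male CD 3 and -1.38 without all 3 (adjusted p = 0.454). Gsta2, a glutathione transferase gene, fell by 1.54 ± 0.30 (SE, adjusted p = 0.00209), with no overlap of diets in either sex. The export pump gene Abcc3 fell by 0.75 ± 0.15 (SE, adjusted p = 0.00304). Log2 effects of Cyp1a1, Abcc4, Ces2c, Cyp2c29 and Ces2a, also called, were -1.37, -1.35, -1.29, -0.88 and -0.56. The receptor genes Nr1i2 (PXR) and Nr1i3 (CAR) were not called, at -0.05 and 0.21.

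**Figure D4:**
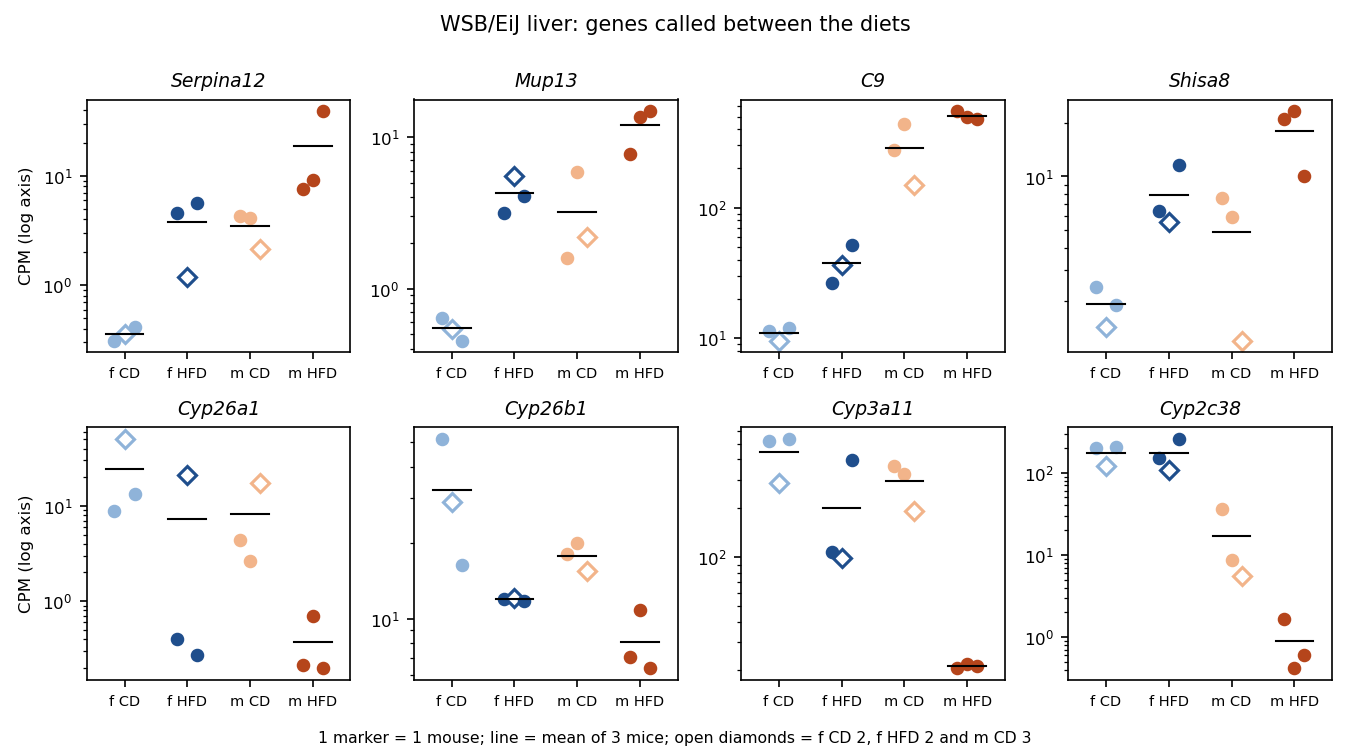
CPM on a log axis of 8 genes called between the diets, in each of the 12 mice, with the mean of 3 mice as a line and the 3 outlying mice as open diamonds. Serpina12, Mup13, C9 and Shisa8 are higher on HFD in both sexes without overlap, and among the lower genes Cyp26b1 does not overlap in either sex while Cyp2c38 is separated in males and overlaps in females.

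Of 25 genes of cholesterol synthesis and its control, 3 fell and 0 rose, with a median log2 effect of -0.20. Of all genes 0.726% were called lower and 0.363% higher. Tm7sf2, a sterol reductase gene, was at 60, 71.9 and 80.2 CPM in female CD, 35.6, 22 and 23.4 CPM in female HFD, 155, 85 and 70.1 CPM in male CD and 49.6, 25.9 and 77.4 CPM in male HFD mice, and fell by 1.21 ± 0.19 (SE, adjusted p = 5.42e-05). Its diets did not overlap in females and overlapped in males. Sqle, the squalene epoxidase gene, was at 22.3, 13.6 and 27 CPM and 5.55, 4.46 and 3.49 CPM in female CD and HFD mice, a fall also called in females alone (-2.22, adjusted p = 0.0215). In males it was at 16.5, 12.6 and 19.2 CPM on CD and 11.2, 4.15 and 16.9 CPM on HFD, with overlap. Averaged over sexes Sqle changed by -1.40 ± 0.35 (SE, adjusted p = 0.0305). It lost its call in 5 of 12 fits (up to 0.129 without female HFD 3) and was not called without the 3 outlying mice (adjusted p = 0.119). Tm7sf2 shares its locus with Vps51, so reads in the overlap could be assigned to either.

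Bile acid and sterol transport held 1 call among 24 measured genes, where 1.09% of all genes were called. Slco1a4, an uptake carrier of bile acids and drugs, was at 57.2, 54.1 and 29.6 CPM in male CD and 12.5, 5.79 and 10.7 CPM in male HFD mice, without overlap. In females the levels of 138, 303 and 219 CPM on CD and 136, 204 and 135 CPM on HFD overlapped. It fell by 1.38 ± 0.29 (SE, adjusted p = 0.00445). Cyp7a1 and Cyp8b1, which set the rate and the composition of bile acid synthesis, were not called, with log2 effects of 0.99 and -0.09. Cyp7a1 ranged from 1.02 to 31.8 CPM on CD alone.

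Of 24 lipogenesis genes 1 rose and 0 fell, with a median log2 effect of -0.11, and of 20 feeding-high genes 1 rose and 0 fell, with a median of -0.13. Among all genes 0.363% were called higher and 0.726% lower. Fasn, Scd1 and Srebf1, of fatty acid synthesis, were not called. Their log2 effects were -0.37, -0.93 and -0.06, and female HFD 2 had 358 CPM of Scd1 against 15.1, 10.6 and 16.1 CPM in male HFD mice. Without female HFD 2, Scd1 was called lower at -1.86 (adjusted p = 0.0268). Pck1, of glucose synthesis, Cpt1a and Pdk4, of fat oxidation, and Cidec, a lipid droplet protein gene, were not called either, at -0.21, -0.25, -1.30 and -0.83. Neither were Cyp4a14, at -0.46, nor Hsd3b3, at 0.86.

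Serpina12 encodes vaspin, a serine protease inhibitor. It (chr12:104028769-104044443) was at 0.311, 0.357 and 0.417 CPM in female CD, 4.56, 1.18 and 5.63 CPM in female HFD, 4.3, 4.09 and 2.15 CPM in male CD and 7.65, 9.21 and 39.2 CPM in male HFD mice. Diets did not overlap in either sex. Serpina12 rose by 2.90 ± 0.44 (SE, adjusted p = 2.56e-05), and was called in all 12 fits without 1 library, with effects of 2.32 to 3.11. Among the other genes of the core that rose, C9, of the terminal complement complex, was at 11.4, 9.61 and 12 CPM in female CD, 26.5, 36.2 and 51.6 CPM in female HFD, 276, 441 and 149 CPM in male CD and 551, 494 and 480.5 CPM in male HFD mice, again without overlap, and rose by 1.30 ± 0.21 (SE, adjusted p = 0.000107). Shisa8 rose by 1.96 ± 0.33 (SE, adjusted p = 0.000175), and Serpine2, a protease inhibitor gene, by 1.17 ± 0.21 (SE, adjusted p = 0.000498). The diets of both genes were apart in each sex. Adgrv1, an adhesion receptor gene, rose by 2.29 ± 0.37 (SE, adjusted p = 0.000101), the carboxylesterase gene Ces3a by 0.88 ± 0.17 (SE, adjusted p = 0.00218), and Gm13339 by 1.02 ± 0.20 (SE, adjusted p = 0.00146). Of these risers Gm13339 was not called without the 3 outlying mice (adjusted p = 0.0594). Many genes described here overlap another annotated gene on the opposite strand: Abcc4, Add3, Adgrv1, Arntl, Ces3a, Dbp, Dnaic1, Fst, Gm10309, Gm11695, Gm13339, Gm18132, Gm46559, Hsd3b3, Inhbe, Nr1i3, Ppp1r3g, Prss8, Rarb, Scd3, Srebf1, Trpm5 and Tuba8. Whether counting used strand is not given in the sources used here, so reads of such pairs cannot be told apart. Gm46559 and Gm11695 are annotated as antisense to Hgd and Slc16a5, and the pseudogenes Gm13339 and Gm18132 lie opposite Myo3a and Lyrm4.

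Moxd1, a relative of dopamine beta-hydroxylase, had the largest positive effect of the 156 called genes, with a wide spread among male HFD mice. Male HFD mice were at 1.68, 17.4 and 30.9 CPM, and the other 9 mice at 0.388 CPM or less. It changed by 3.32 ± 0.78 (SE, adjusted p = 0.0151), and lost its call in 3 of 12 fits and without the 3 outlying mice (adjusted p = 0.283). Nat8f7, an acetyltransferase gene, was near its detection limit, at 0, 0 and 0.109 CPM and 1.15, 0.0185 and 2.29 CPM in female CD and HFD mice. It changed by 2.99 ± 0.75 (SE, adjusted p = 0.0279), by 2.50 without female HFD 3 and by 4.98 without female CD 3. Its call was lost in 6 of 12 fits (up to 0.223 without male HFD 3) and without the 3 outlying mice (adjusted p = 0.0861). Lmod2, Dnaic1 and the pseudogene Gm8941 changed by 1.78, 1.83 and 1.81, with adjusted p of 0.0151, 0.0446 and 0.0417. These 3 lost their calls in 3, 7 and 7 fits, and none was called without the 3 outlying mice.

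The major urinary proteins are pheromone carriers that male liver secretes in larger amounts than female liver. Of 20 measured Mup genes 6 were called, all higher on HFD (Mup3, Mup11, Mup12, Mup13, Mup17 and Mup18), and all 20 had positive values, also with RLE scaling and without the 3 outlying mice. The family was picked out after its values were seen, and 0.363% of all genes were called higher. The median log2 effect was 1.86 in females and 0.57 in males, and 1.69 and 0.27 without the 3 outlying mice, where 1 of the 20 was called. Mup13 was at 0.641, 0.543 and 0.453 CPM in female CD, 3.17, 5.53 and 4.1 CPM in female HFD, 1.6, 5.86 and 2.19 CPM in male CD and 7.74, 13.4 and 14.8 CPM in male HFD mice, and rose by 2.43 ± 0.32 (SE, adjusted p = 6.06e-07). Mup11 changed by 2.50 ± 0.54 (SE, adjusted p = 0.00641), and Mup18 by 1.85 ± 0.45 (SE, adjusted p = 0.0202). These 2 lost their calls in 1 and 4 of 12 fits, and without the 3 outlying mice (adjusted p = 0.348 and 0.156). Mup18 was at 0.22, 0.408 and 0.236 CPM on CD and 1.23, 2.28 and 2.74 CPM on HFD in females, and overlapped in males. The Mup genes are near-identical copies on chromosome 4, so reads could be split between them, and values of single Mup genes are uncertain.

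This pattern was set beside sex bias measured without any WSB/EiJ library. On CD in the other 8 strains, 189 genes were at least 2-fold higher in males and 172 at least 2-fold higher in females (adjusted p under 0.05). The female arm holds the library labelled 129S1/SvImJ f CD 1, whose sex-linked genes go against its label. With the lists chosen without it, 16 of 198 male-biased genes were called higher and 4 lower (median 0.35), and 0 of 189 female-biased genes higher and 9 lower (median -0.25). The lists that keep it give the values that follow. On HFD in WSB/EiJ, 0.363% of all genes were called higher and 0.726% lower, with a median log2 effect of -0.01. Of the 189 male-biased genes 16 were called higher (8.47%) and 4 lower (2.12%), with a median of 0.37. All 20 Mup genes are among the 189, and 6 of the 16 are Mup genes. Without them 10 of 169 were called higher (5.92%) and 4 lower, with a median of 0.27. Of the 172 female-biased genes 0 were called higher and 8 lower (4.65%), with a median of -0.26. By sex, the male-biased genes had a median of 0.34 in females and 0.26 in males, and the female-biased genes 0.03 in females and -0.41 in males. Without the 3 outlying mice 13 of all 14330 genes were called higher and 30 lower. Of the male-biased genes 6 were then called higher and 3 lower, and the median was 0.23 in the sex average, 0.23 in females and 0.04 in males. Of the female-biased genes 0 were then called higher and 7 lower, with medians of -0.26, 0.02 and -0.41 in the same order. In the other 8 strains the diet effect had medians of 0.09 and -0.05 over the same genes, and of 0.04 and -0.06 over the lists chosen without 129S1/SvImJ f CD 1. The sex-biased lists chosen from general knowledge gave 0 calls among 20 male-biased genes (median 0.55) and 1 call, lower on HFD, among 20 female-biased genes (median -0.17).

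**Figure D5:**
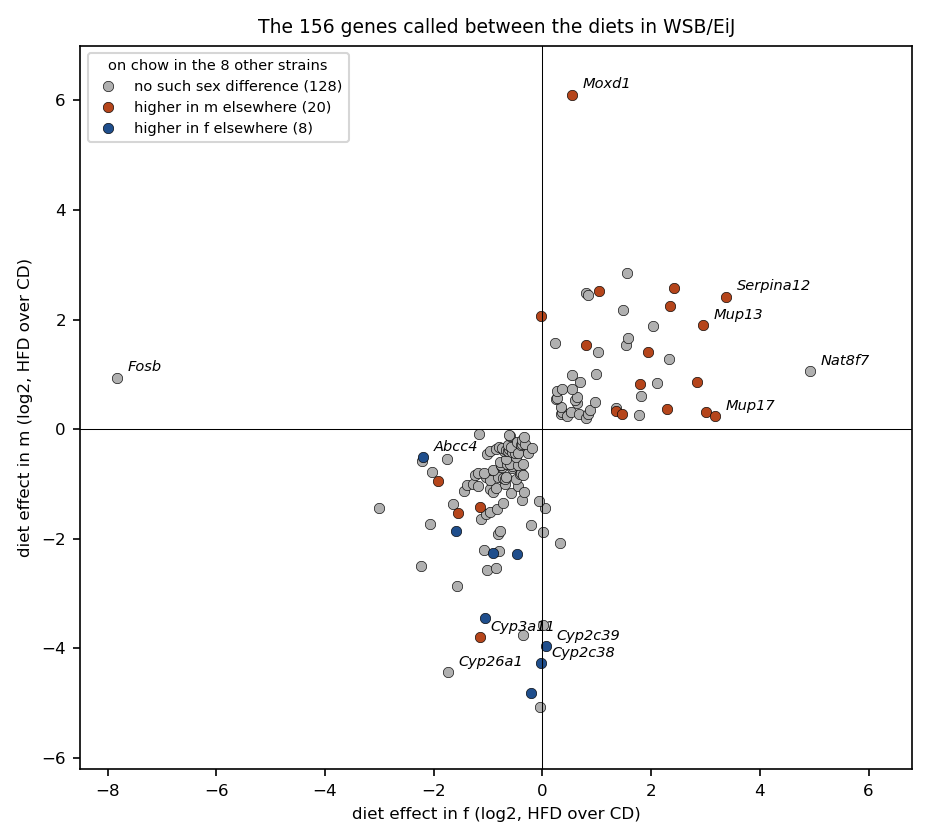
Diet effect in females against that in males (log2, HFD over CD) for the 156 genes called in the sex average, coloured by sex bias on CD in the other 8 strains. Male-biased genes, 189 of all 14330, make up 16 of the 52 genes called higher and 4 of the 104 called lower. Female-biased genes, 172 of all 14330, make up 0 of the 52 and 8 of the 104. Fosb, Moxd1, Cyp2c38 and Cyp2c39 lie near the axis of 1 sex.

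In females alone 63 genes were called (0.44%), 37 higher (0.258%) and 26 lower (0.181%), and 1644 had an unadjusted p under 0.05 (11.5%). In males alone 66 were called (0.461%), 20 higher (0.14%) and 46 lower (0.321%), and 1036 had an unadjusted p under 0.05 (7.23%). Both comparisons called 4 genes in common. Leaving out 1 WSB/EiJ library gave 15 genes (without female HFD 3) to 1862 (without female HFD 2) in females, and 20 (without male HFD 2) to 110 (without male CD 2) in males. Fitted on WSB/EiJ alone, edgeR called 0 genes in either sex, with 496 and 313 at an unadjusted p under 0.05. Without the 3 outlying mice 103 were called in females, 64 higher and 39 lower, and 114 in males, 61 higher and 53 lower. The test of the difference between the sexes called 16 genes (0.112%), 15 with the lower effect in males (0.105%) and 1 with the higher (0.00698%), while 764 genes passed an unadjusted p of 0.05 (5.33%). This count ran from 8 without male HFD 2 to 47 without female CD 2, and was 0 on WSB/EiJ alone in edgeR (286 at an unadjusted p under 0.05). The uneven direction did not hold throughout: without the 3 outlying mice 164 genes were called, 93 with the lower effect in males and 71 with the higher, 12 of them among the 16. Without male CD 3 it was 29 and 16, without female HFD 2 18 and 12, and in limma with array weights 38 and 23. Cyp2c38 had a difference of -4.25 ± 0.75 (SE, adjusted p = 0.000864), Cyp2c39 of -4.02 ± 0.65 (adjusted p = 0.000368) and Cyp3a11 of -2.64 ± 0.56 (adjusted p = 0.0134). The Cyp3a11 difference lost its call in 4 of 12 fits, and was -1.68 without female HFD 3 (adjusted p = 0.346). That of Cyp2c38 was lost in 1 fit (adjusted p = 0.0616 without male CD 1), and that of Cyp2c39 in none. Prlr, the prolactin receptor gene, and Cyp2c29 were among the 16 at -2.50 and -2.40, and each lost its call in 2 fits. Cyp26a1, Moxd1 and the Mup genes named above were not, so a difference between the sexes was not shown for them.

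Fosb, an immediate early transcription factor gene, had the one difference in the other direction (8.77 ± 1.47, adjusted p = 0.000368). It stood at 19, 0.441 and 189 CPM in female CD mice and at 0.666 CPM or less in the rest, so its effect rested on female CD 3 and female CD 1. In the sex average Fosb changed by -3.44 ± 0.80 (SE, adjusted p = 0.0149), and by -2.02 without female CD 3, with its call lost in 3 of 12 fits. It was the 1 call among 13 measured immediate early genes, whose summed CPM was 3923 in female CD 3 and 285 to 1205 in the rest. Fst, the follistatin gene, stood at 29.8, 134 and 50.7 CPM, 14.5, 387 and 12.9 CPM, 22.5, 30.5 and 179 CPM and 3.91, 3.38 and 5.6 CPM in female CD, female HFD, male CD and male HFD mice. Its difference of -5.12 ± 0.98 (adjusted p = 0.00346) became -1.07 without the 3 outlying mice (adjusted p = 0.63).

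In the mean effect of the other 8 strains, the male HFD group of NZO/HlLtJ held 1 library. Set against that mean, the WSB/EiJ diet effect differed for 40 genes (0.279%), upward for 15 (0.105%) and downward for 25 (0.174%), and 1377 had an unadjusted p under 0.05 (9.61%). Without 1 WSB/EiJ library the count was 29 (without female CD 2) to 480 (without female HFD 2). With male CD 3 left out, 24 genes differed upward and 21 downward. Serpina12 differed by 2.62 ± 0.46 (SE, adjusted p = 0.00077), and its mean effect in the other strains was 0.27. Moxd1 differed by 3.84 ± 0.83 (adjusted p = 0.0124), and was not called without the 3 outlying mice (adjusted p = 0.184). Among genes with a higher effect than elsewhere were also Trpm5, an ion channel gene, Ugt2b37 and Wfdc21, at 2.36, 1.69 and 1.68. They lost these calls in 6, 5 and 3 of 12 fits, and without the 3 mice Ugt2b37 alone kept it (adjusted p = 0.00571). Of these 3, Wfdc21 was called within WSB/EiJ (1.62), and Trpm5 and Ugt2b37 were not. Cyp2c38 and Cyp2c39 differed downward by -2.25 and -1.75, with mean effects elsewhere of 0.10 and -0.20. Krt23, a keratin gene, and Cyp2b13 differed by -1.82 and -2.25, the latter with 0.598 without male CD 3 as its highest adjusted p among fits without 1 library. Rdh9 and Srebf1, named here after their values were seen, were also called in this comparison, at -1.62 and -1.14, and Srebf1 lost its call in 7 of 12 fits. Cyp26a1 was not, at -2.05 (adjusted p = 0.0858), and its mean effect elsewhere was -1.04. It was called in 4 of 12 fits without 1 library, with -4.27 (adjusted p = 8.23e-08) without female HFD 2, and without the 3 outlying mice at -3.09 (adjusted p = 8e-05).

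Further genes of the core fell. Ptgds, a prostaglandin D synthase gene, fell by 1.58 ± 0.31 (SE, adjusted p = 0.00209), and Prss8, a membrane serine protease gene, by 1.43 ± 0.25 (SE, adjusted p = 0.000311). Tgfbr2, a receptor of TGF beta, fell by 0.81 ± 0.15 (SE, adjusted p = 0.000564), and Sfxn1, a mitochondrial serine carrier gene, by 0.52 ± 0.09 (SE, adjusted p = 0.00032). Htatip2, Tm4sf4, Slc22a15 and Add3 fell by 0.70, 0.69, 0.61 and 0.35, with adjusted p between 0.000244 and 0.0106. Tm4sf4 was at -0.06 in females and -1.31 in males, a difference of -1.25 called between the sexes (adjusted p = 0.0396) and lost in 6 of 12 fits. Of these 8, Ptgds, Prss8 and Sfxn1 were also called without the 3 outlying mice.

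Other negative effects lost their call without the 3 outlying mice, with or without a change in size. Myo16, an unconventional myosin gene, changed by -2.21 ± 0.57 (SE, adjusted p = 0.0336), but it was at 3.19, 1.05 and 4.39 CPM in the 3 outlying mice and at 0.377 CPM or less elsewhere. Its value was 0.04 without female CD 2 and -0.15 without the 3 mice. Gm18132, Gm46559, Gm11695 and 1500009C09Rik changed by -2.55, -2.06, -1.72 and -1.80. Without the 3 mice they were at -1.41, -1.64, -1.12 and -0.45, and none was called. Tuba8, a tubulin gene, and Scd3, a fatty acid desaturase gene, changed by -1.89 and -1.78. Without the 3 mice they kept values of -1.60 and -1.52 but were not called (adjusted p = 0.152 and 0.327). Tuba8 was at -0.90 without male CD 3. Gpnmb, the 1 called gene of 22 macrophage markers, changed by -1.29 ± 0.35 (SE, adjusted p = 0.047), and was at -0.86 without the 3 mice and not called (adjusted p = 0.493). The other macrophage markers gave no call, and the pan-macrophage marker Adgre1 was at 0.19.

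The remaining lists gave no call in the sex average with edgeR. Among these, 35 fatty acid oxidation genes, 20 lipid droplet genes, 20 fasting-high genes, 39 genes of amino acid and urea metabolism, 32 stress-response genes, 22 acute-phase genes, 29 interferon-response genes, 21 genes of growth hormone and insulin signalling and 16 proliferation genes had medians between -0.32 and 0.32. The clock genes, 6 high in the morning and 12 high in the evening, had medians of 0.10 and 0.11, with Arntl at -0.04 and Dbp at 0.09. Markers of hepatocytes (9), stellate cells and matrix (24, with Col1a1 at -0.75), endothelial cells (12), cholangiocytes (7), lymphocytes and plasma cells (12), white fat (6) and pancreas (2) had medians between 0.02 and 0.42. White fat markers summed to 18.7, 14.2 and 20.7 CPM in female CD and 27.8, 12.1 and 80.1 CPM in female HFD mice. In males their sums were 60.9, 55.4 and 14.4 CPM on CD and 63.9, 16.1 and 161 CPM on HFD. The highest mouse of each group also had the highest Serpina12 of its group, a match that was not tested. Granulocyte markers (12) had a median of -0.79, and their summed CPM was 2.84 to 4.49 in female CD, 0.906 to 2.31 in female HFD, 1.96 to 2.27 in male CD and 0.811 to 1.21 in male HFD mice. Blood markers (6) had a median of -0.41, with 1.31 in females and -2.33 in males. Their summed CPM was 194 in male CD 2 against 9.69 and 44.4 in the other male CD mice. Without female HFD 2 some of these lists held calls: 2 fasting-high genes were higher and 6 lower, and 4 amino acid genes were higher and 9 lower, against 661 and 1131 of all genes.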

How the data were processed

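Liver RNA-seq from 106 mice of 9 strains was read from 1 deposited table of whole-number read counts per gene (14330 genes). Per the submitters' processing notes the authors used FastQC, STAR 2.73a and edgeR 3.24.3, and the genome build, counting tool and strand setting are not given in the sources used here. Reads aligned to several places, ambiguous reads and reads in no gene (3 rows) were left out of library sizes. Their largest class, reads aligned to several places, came to 18.5% to 25.2% in WSB/EiJ libraries. Symbols and coordinates are those of GENCODE M21 (GRCm38), which matched 14321 IDs.

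The counts were scaled by TMM and fitted with edgeR 4.0.16 in R 4.3.3 (quasi-likelihood test, 36 group means, 70 residual degrees of freedom), with Benjamini-Hochberg adjustment over all genes and a threshold of 0.05. On simulated counts for the sex-averaged comparison over 14330 genes, 95% of genes changed by a log2 fold of 1 and 99% of those changed by 2 were recovered, with 5.83% false calls. The simulated mice had the spread shared by all groups, without the wider WSB/EiJ spread and without outlying mice. These rates therefore do not carry over to the measured WSB/EiJ calls. CPM were computed with TMM library sizes, and SDs of log2 CPM with a prior count of 1. Alternatives were DESeq2 1.42.0, limma 3.58.1 with and without array weights, RLE scaling, other dispersion and gene filters, WSB/EiJ alone and leaving out libraries. Leaving out the 3 outlying mice together, and choosing the sex-biased lists without the library labelled 129S1/SvImJ f CD 1, were added after seeing the data. The strain, the gene lists and the marker lists were chosen with earlier results of these data known.

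Named genes were the 12 highest and 12 lowest called effects of 1 CPM or more with 1 direction in both sexes, up to 3 per direction of the sex difference, 5 per direction against the other strains, the 10 of widest spread at 5 CPM or more, up to 4 called members per list, and a panel of 24. The other genes were named after their values were seen. A few genes selected by this rule are not reported here. Where nothing says that the mice of a group were raised or processed apart, p-values measure only a spread between mice. That spread was estimated over all 36 groups, most of them of strains whose mice varied less (median SD 0.18 to 0.246 against 0.325 in WSB/EiJ). One library of another strain, 129S1/SvImJ f CD 1, had sex-linked genes that went against its label. It was kept, and leaving it out was an alternative.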

Additional observations from a re-analysis of the deposited data

Results flagged for a closer look

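The diet effect differed between the sexes by an interaction test for 16 genes. The differences, as the male minus the female log2 effect, were 8.77 for Fosb, -6.16 for Platr23, -5.12 for Fst and -5.04 for Hectd2os. The call of Fosb held in each fit without 1 library. Without female HFD 2, Platr23 and Fst had adjusted p of 0.645 and 0.4, and without female HFD 3, Hectd2os had 0.506. Platr23 was at 0.0594, 6.18 and 0.116 CPM in female HFD and Hectd2os at 2.04, 0.167 and 11.7 CPM in the same mice, so 1 mouse was far above the others for each. Hectd2os is annotated as antisense to Hectd2, and with the strand setting not given, reads of the pair cannot be told apart.

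The WSB/EiJ diet effect differed from the mean of the other 8 strains for 40 genes. Upward differences were 3.84 for Moxd1, 2.62 for Serpina12, 2.36 for Trpm5, 1.69 for Ugt2b37 and 1.68 for Wfdc21. Downward differences were -4.45 for Fosb, -2.25 for Cyp2b13, -2.25 for Cyp2c38, -1.82 for Krt23 and -1.75 for Cyp2c39. Cyp2b13 was at 0.158, 0.129 and 2.15 CPM in male CD mice, and its adjusted p was 0.598 without male CD 3.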

How the results depend on the processing

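Leaving out 1 WSB/EiJ library at a time gave 40 to 1792 called genes for the sex average, 15 to 1862 in females, 20 to 110 in males, 8 to 47 for the sex difference and 29 to 480 against the other strains. Fitted on WSB/EiJ alone with edgeR, 0 genes were called for the sex average, females, males and the sex difference, where 563, 496, 313 and 286 had an unadjusted p under 0.05. Without the 3 outlying mice the counts were 43, 103, 114 and 164 for these 4 comparisons, and with WSB/EiJ alone as well they were 7, 7, 4 and 0 (1233 at an unadjusted p under 0.05 for the last). With low genes left out, 99 were called for the sex average (37 higher, 62 lower), 40 in males and 10 for the sex difference. DESeq2 called 104 in females, 101 in males, 38 for the sex difference and 95 against the other strains. Limma with a trend called 41, 9 and 69 in males, for the sex difference and against the other strains. With array weights it called 38 in females, 319 in males, 61 for the sex difference and 97 against the other strains. For the sex average limma called 54 higher and 63 lower with the trend, and 63 higher and 73 lower with array weights. The median spread was 0.264 over genes of at least 5 CPM. For 81 effects of single genes, which leave out the genes named for their spread alone, 972 values were computed without 1 library. Of these 825 stayed on their side of the threshold, 142 lost the call, 4 gained it and 1 called value changed sign. Sign changes of values called in neither fit were not counted. Myo16 ran from -4.26 without female HFD 2 to 0.0429 without female CD 2. Under the other alternatives 666 of 848 stayed on their side of the threshold, and 0 called values changed sign. The cause of these shifts was not tested. No paired analysis was possible because the labels give animal numbers and no replicate number shared between groups. Few counts per library limit Moxd1, Nat8f7, Myo16 and single Mup genes.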

Other observations

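Several genes that set the 3 outlying WSB/EiJ mice apart were compared with the libraries of the other strains, 48 on CD and 46 on HFD. Ddit4 was at most 163.5 CPM on CD and 44.7 CPM on HFD there, against 406.8 CPM in the lowest of the 3 mice. Adcy1 was at most 34.5 and 30.2 CPM against 109.5 CPM, and Lepr at most 387.7 and 368.5 CPM against 419.9 CPM. Cyp26a1 was at most 12.7 and 7.47 CPM against 17.5 CPM. For Ppp1r3g and Fst, 1 CD library of the other strains reached the level of the lowest of the 3 mice. Lpin1, a phosphatidate phosphatase gene, did not set them apart: 17 CD and 10 HFD libraries reached their 300.5 CPM.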
